A study of Capra hircus with 6 samples.

Results

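The pappalysins PAPPA and PAPPA2 and the stanniocalcins STC1 and STC2 were followed across the ovaries of 6 goats (Capra hircus). These 4 genes were chosen by name, as the proteases that free insulin-like growth factors (IGFs) and the inhibitors of those proteases, and all 4 were among the 17504 genes of the expression tables (GeneIDs 102179947, 102183087, 102179386 and 102191082). The animals were 3 Tibetan goats, labelled as a non-prolific breed, and 3 Jintang black goats, labelled as prolific. All were sampled in the follicular phase, when follicles grow towards ovulation, and each library came from the ovarian RNA of 1 animal. The labels give no age, treatment or batch. The labels set the ovarian transcriptomes of the breeds against each other. Expression is given in FPKM, the fragments of a gene divided by transcript length and by the size of its library, a unit that corrects for gene length and so allows levels of different genes to be compared within a library.

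IGFs in follicular fluid are held by binding proteins, and cleavage of the binding protein releases the growth factor near its receptor. PAPPA, first known from pregnancy serum, is a secreted metalloproteinase that cuts IGFBP4, IGFBP5 and IGFBP2, and in several species its ovarian transcript has been described in granulosa and luteal cells. PAPPA2 is a related protease that cuts IGFBP3 and IGFBP5. STC1 and STC2 are secreted glycoproteins that bind the pappalysins and block them, STC2 through a covalent link to PAPPA. STC1 transcript has been described in theca, interstitial and luteal cells, and both stanniocalcins are known to be induced by low oxygen.

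The libraries were of similar relative depth, estimated from low FPKM values at 0.930 to 1.03 with Tibetan 1 set to 1, but absolute depth is unknown. They had sums of 602255 to 682801 FPKM and 12617 to 13131 genes at 1 FPKM or more. Along a first principal component with 45.6% of the variance, Jintang 2 (66.8) and Jintang 1 (38.2) had the highest scores, Tibetan 3 followed at 9.55, and Jintang 3 (-24.8) fell among the Tibetan ovaries (down to -57.2). The second component (23.5%) set Jintang 1 (-52.8) and Jintang 2 (21.1) apart from each other. As a check of the tissue label, 11 of 11 granulosa markers and 4 of 7 oocyte markers reached 1 FPKM in at least 3 ovaries, and none was at 0 in every ovary.

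STC1 was the most abundant of the 4 transcripts and PAPPA2 was at or near 0. Over the 6 ovaries STC1 averaged 16.2 ± 13.6 FPKM (SD, n = 6), STC2 3.09 ± 3.61 FPKM, PAPPA 1.64 ± 3.29 FPKM and PAPPA2 0.0133 ± 0.0216 FPKM. The medians, 12.6, 1.18, 0.32 and 0 FPKM, gave the same order. Within libraries STC1 lay above PAPPA in 6 of 6 ovaries, STC1 above STC2 in 5 of 6, STC2 above PAPPA in 5 of 6, and PAPPA above PAPPA2 in 6 of 6. Neighbouring means in this order nevertheless differed by less than the larger of their SDs over goats. PAPPA and PAPPA2 did not reach 1 FPKM in at least 3 ovaries, the level required for testing, and STC1 and STC2 did, so that 2 of the 4 genes entered the test over 13067 genes.

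**Figure D1:**
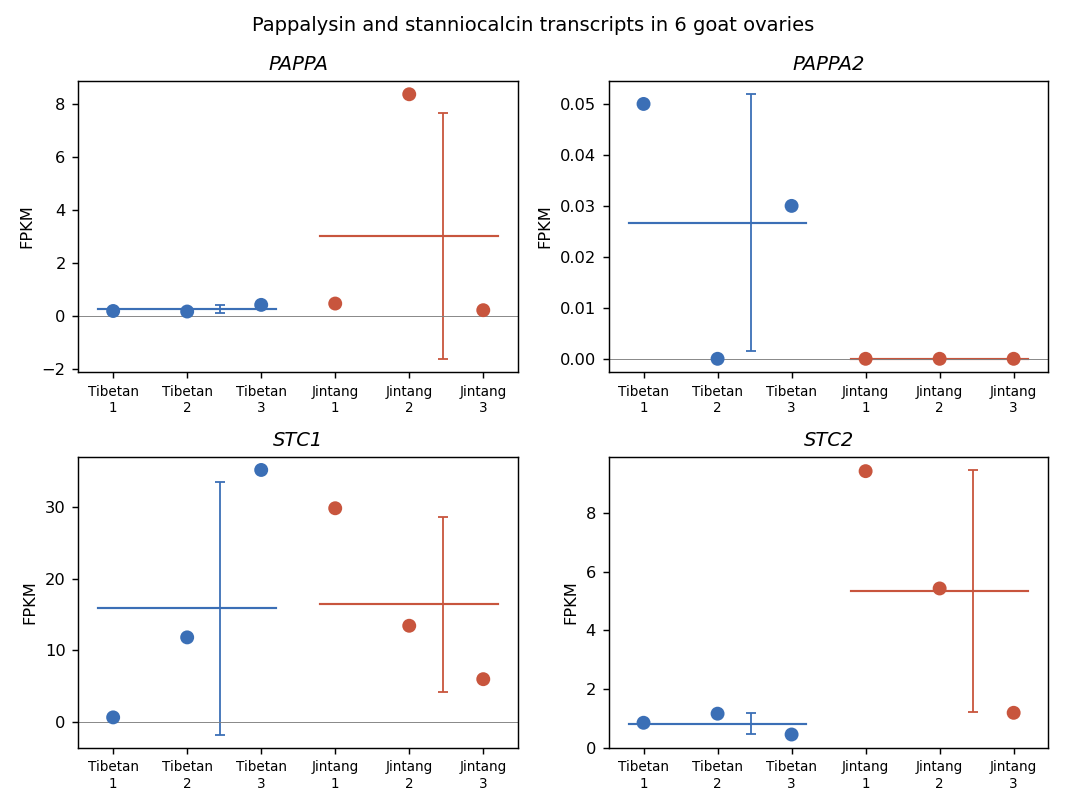
FPKM of PAPPA, PAPPA2, STC1 and STC2 in each ovary (blue, Tibetan; red, Jintang), on a linear axis of its own for each gene; horizontal lines are breed means and bars are ± 1 SD (n = 3 goats). PAPPA stands at 8.35 FPKM in Jintang 2 and at 0.47 FPKM or less in the other 5 ovaries, STC1 overlapped between the breeds, and STC2 was high in Jintang 1 and 2.

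PAPPA, the protease of IGFBP4, was close to 0 in 5 ovaries and clearly expressed in 1. Tibetan 1, 2 and 3 were listed at 0.19, 0.17 and 0.42 FPKM, and Jintang 1, 2 and 3 at 0.47, 8.35 and 0.22 FPKM. Jintang 2 thus held 17.8 times the level of the next ovary, and the other 2 Jintang ovaries fell within or just above the Tibetan range. The level in Jintang 2 was higher than that of 55.6% of all genes in that library, against 14.0% to 21.1% in the other 5. The other 5 values are given to 2 decimals and the number of fragments behind them is unknown, so no order is read among these ovaries. The gene model of PAPPA in the tables carries another RefSeq transcript accession than the reference table does, unlike the other 3 members, and fragments outside the model used would not have been counted.

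PAPPA had a mean of 0.26 ± 0.139 FPKM over the Tibetan goats and 3.01 ± 4.62 FPKM over the Jintang goats (SD, n = 3 each). In a limma fit over all 17411 genes with a value above 0, used because PAPPA missed the expression level for testing, the log2 fold change was 1.03 (the Jintang mean minus the Tibetan mean of log2(FPKM + 1), a scale that shrinks differences of low genes; 95% interval -0.68 to 2.74; limma adjusted p = 0.794). Without Jintang 2 it was 0.09 (95% interval -0.28 to 0.47), and without Jintang 1 and 2 together it was -0.04. The breed difference was smaller than the spread between goats and rested on 1 animal.

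Peaks in a single ovary also occurred in other genes. Of 14399 genes that reached 1 FPKM in some ovary, 37 (0.257%) stood in Jintang 2 at 10 or more times their next highest ovary, 46 did so in Jintang 1, 32 in Tibetan 3, and 3 to 10 in each of the remaining ovaries. At 5 or more times, 105 genes (0.729%) did so in Jintang 2. PAPPA entered this set only through its Jintang 2 value, so these shares do not measure how unusual its peak was. Jintang 2 also had the highest luteal marker level. Its summed level of 8 luteal markers (of 9 listed) was 24385 FPKM, against 574 and 6554 FPKM in Jintang 3 and 1 and 403 to 3167 FPKM in the Tibetan ovaries, and 6 of the 8 markers were highest there. Among them CYP11A1, the enzyme that starts steroid synthesis from cholesterol, was at 5994.6 FPKM in Jintang 2 and at 52.8 to 912 FPKM elsewhere, and 3BHSD, which makes progesterone, was at 4269.8 FPKM against 28.1 to 482 FPKM. TIMP1, a metalloproteinase inhibitor that luteal cells secrete, was at 9215 FPKM against 253 to 5303.8 FPKM. The luteal markers PTGFR and PRLR, receptors for prostaglandin F and prolactin, were instead highest in Jintang 1, at 274 and 53.4 FPKM against 259 and 1.35 FPKM in Jintang 2. No luteal marker was at 0 in any ovary. The part of luteal tissue in the PAPPA value was not tested, and in whole-ovary RNA more cells of a type and more RNA per cell cannot be told apart.

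Granulosa markers were not highest in that ovary. Of the 11 genes, 0 peaked in Jintang 2, and their mean log2 level there was 3.86, above Tibetan 1 (3.61) and Jintang 1 (3.73) and below Tibetan 3 (4.11), Jintang 3 (4.92) and Tibetan 2 (5.06). Their summed level was 357 FPKM in Jintang 2, against 577 and 631 FPKM in the other Jintang ovaries and 374 to 1477 FPKM in the Tibetan ones. INHA, the inhibin alpha subunit, was at 132 FPKM in Jintang 2, within a range of 9.56 FPKM (Jintang 1) to 1194 FPKM (Tibetan 3). CYP19A1, the aromatase of oestrogen-making granulosa cells, was at 6.90 FPKM in Jintang 2, below Tibetan 3 (15.6 FPKM) and Tibetan 2 (7.34 FPKM) and above the other 3 ovaries (0.27 to 1.75 FPKM). FSHR, the receptor for follicle-stimulating hormone, was at 0 in Tibetan 1 and at 1.51 FPKM in Jintang 2. The part of granulosa cells in the PAPPA value was not tested either, and whole-ovary RNA cannot place the transcript in a cell type.

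PAPPA2, the protease of IGFBP3 and IGFBP5, was at or near 0 everywhere. Tibetan 1, 2 and 3 were listed at 0.05, 0 and 0.03 FPKM and all 3 Jintang ovaries at 0. No fold change is given against a group listed at 0, and whether trace expression differs between breeds could not be seen at this depth.

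STC1, the more abundant inhibitor, varied widely within each breed. Tibetan 1, 2 and 3 held 0.67, 11.8 and 35.2 FPKM, and Jintang 1, 2 and 3 held 29.8, 13.5 and 6.0 FPKM. The Tibetan ovaries thus held both the highest and the lowest value, a 52.5-fold range that enclosed all Jintang ovaries. Tibetan 1 stood apart at the bottom, 8.96-fold below the next ovary, while Tibetan 3 and Jintang 1 at the top differed by 1.18-fold and Jintang 2 and Tibetan 2 in the middle by 1.14-fold. The within-breed SD of STC1 on the log2 scale was 1.77, larger than that of 99.3% of tested genes (median 0.42).

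The breed means of STC1 were 15.9 ± 17.6 FPKM (Tibetan) and 16.4 ± 12.2 FPKM (Jintang). Its log2 fold change of 0.67 (SE 1.04, 95% interval -1.72 to 3.06) came with a limma adjusted p of 0.888. The means themselves were 1.03-fold apart. Without Tibetan 1, the goat with almost no STC1, the log2 fold change was -0.56 (95% interval -2.17 to 1.05). The interval leaves room for a large difference in either direction, so the test does not show that the breeds are equal.

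STC2 was low in all Tibetan ovaries and higher in 2 of 3 Jintang ovaries. Tibetan 1, 2 and 3 held 0.85, 1.16 and 0.45 FPKM of it, and Jintang 1, 2 and 3 held 9.43, 5.43 and 1.19 FPKM. All Jintang values exceeded all Tibetan values, but Jintang 3 exceeded Tibetan 2 by only 0.03 FPKM (1.03-fold), whereas Jintang 2 stood 4.56-fold above Jintang 3. Such complete separation with the Jintang ovaries above occurred in 3.20% of the 13067 tested genes (418 genes). After scaling each library to a common sum or by median ratios the gap between the 2 closest ovaries was still 1.05-fold and 1.03-fold.

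Mean STC2 was 0.82 ± 0.356 FPKM (Tibetan) and 5.35 ± 4.12 FPKM (Jintang), a 6.52-fold difference. On the log2(FPKM + 1) scale the fold change was 1.55 (SE 0.56, 95% interval 0.27 to 2.84), higher than that of 98.6% of tested genes, with an unadjusted limma p of 0.0234. Leaving out Tibetan 3, Jintang 1 or Jintang 2 singly gave unadjusted limma p of 0.0580, 0.0889 and 0.0585, with intervals that included 0. It did not pass adjustment over all genes (limma adjusted p = 0.743). No gene did: limma called 0% of the 13067 genes in either direction at an adjusted p under 0.05, and 806 genes (6.17%) had an unadjusted p under 0.05. Without Jintang 1 and 2, the 2 goats in which STC2 was high, the log2 fold change was 0.29 (95% interval -1.05 to 1.62), where the lone Jintang goat is assumed to vary like the Tibetan goats.

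**Figure D2:**
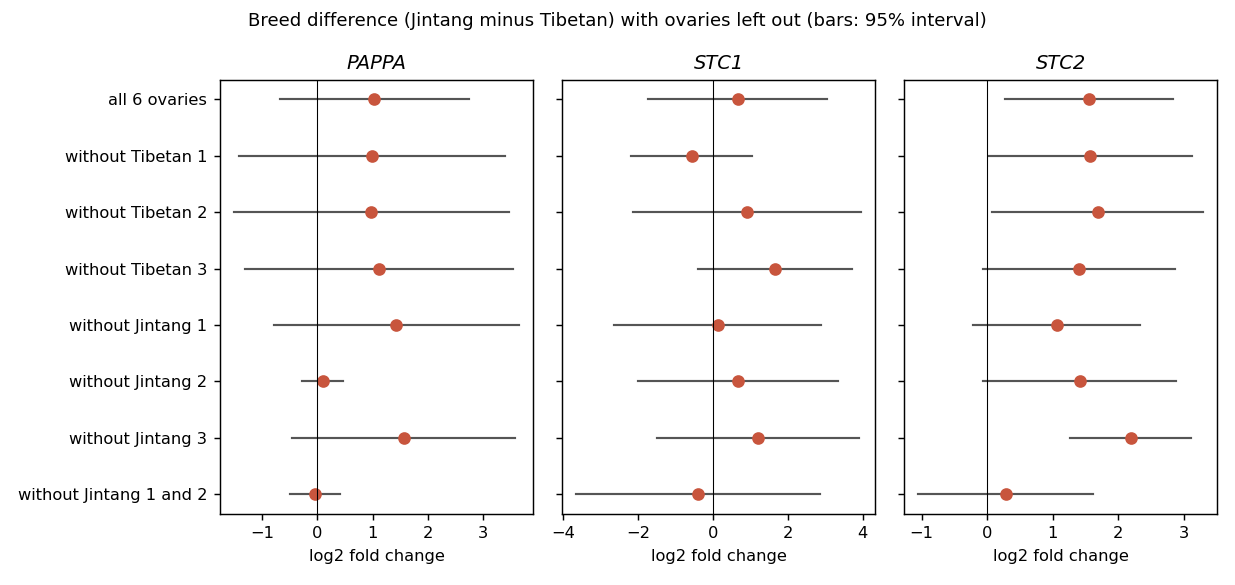
Log2 fold changes (Jintang minus Tibetan) of PAPPA, STC1 and STC2 from limma with all 6 ovaries, with each ovary left out in turn, and with Jintang 1 and 2 left out together; bars are 95% intervals and each panel has its own horizontal axis. STC2 fell to 0.29 without Jintang 1 and 2, STC1 changed sign without Tibetan 1, and PAPPA fell to 0.09 without Jintang 2. The sign of STC2 could not change in any row, since each Jintang value exceeded each Tibetan value.

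The 2 stanniocalcins did not follow each other. STC1 made up 44.1%, 91.1% and 98.7% of the summed stanniocalcin FPKM in Tibetan 1, 2 and 3, and 76.0%, 71.2% and 83.4% in Jintang 1, 2 and 3. Tibetan 3, the ovary with the most STC1, had the least STC2 (0.45 FPKM). Tibetan 1 was the single ovary with slightly more STC2 than STC1. The log2 ratio of STC1 to STC2, with 1 FPKM added to each, averaged 2.35 ± 2.40 in Tibetan and 1.47 ± 0.27 in Jintang ovaries, so that the Jintang ratios lay close together inside the Tibetan range.

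STC1 exceeded its target protease in every ovary and STC2 did so in 5 of 6. STC1 stood 69.6-fold, 83.8-fold, 63.5-fold and 27.3-fold above PAPPA in Tibetan 2, Tibetan 3, Jintang 1 and Jintang 3. The excess was 3.53-fold in Tibetan 1, where both genes were under 1 FPKM, and 1.61-fold in Jintang 2, where both were expressed. STC2 stood 20.1-fold above PAPPA in Jintang 1 and 4.47-fold, 6.82-fold and 5.41-fold above it in Tibetan 1, Tibetan 2 and Jintang 3, but only 1.07-fold in Tibetan 3 (0.45 against 0.42 FPKM). In Jintang 2 PAPPA exceeded STC2, at 8.35 against 5.43 FPKM. Outside Jintang 2 these folds divide by PAPPA values of 0.17 to 0.47 FPKM, so their sizes are uncertain. The log2 ratio of PAPPA to STC1 averaged -2.87 ± 2.15 in Tibetan and -2.51 ± 1.88 in Jintang ovaries. These ratios are of transcripts, and proteins were not measured.

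The substrates of the proteases were abundant transcripts in every ovary. IGFBP4, the main PAPPA substrate, had 698, 804 and 433 FPKM across Tibetan 1 to 3, and 792, 374 and 673 FPKM across Jintang 1 to 3. IGFBP4 thus exceeded PAPPA by 1030.2-fold to 4730.1-fold in 5 ovaries and by 44.8-fold in Jintang 2, which had both the most PAPPA and the least IGFBP4. IGFBP5, cut by both proteases, had 1060.5, 699 and 198 FPKM across Tibetan 1 to 3, and 1323.4, 108 and 709 FPKM across Jintang 1 to 3, again lowest in Jintang 2. IGFBP2 ranged from 140.1 to 621 FPKM with its lowest value in Jintang 2 as well, while IGFBP3 kept within 132 to 197 FPKM over all 6 ovaries. Low values in Jintang 2 were not particular to the substrates: IGFBP6 (313 FPKM there, 416 to 1165 FPKM elsewhere), IGF2, IGF1R (13.9 FPKM) and INSR (22.1 FPKM) were also lowest in that ovary.

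**Figure D3:**
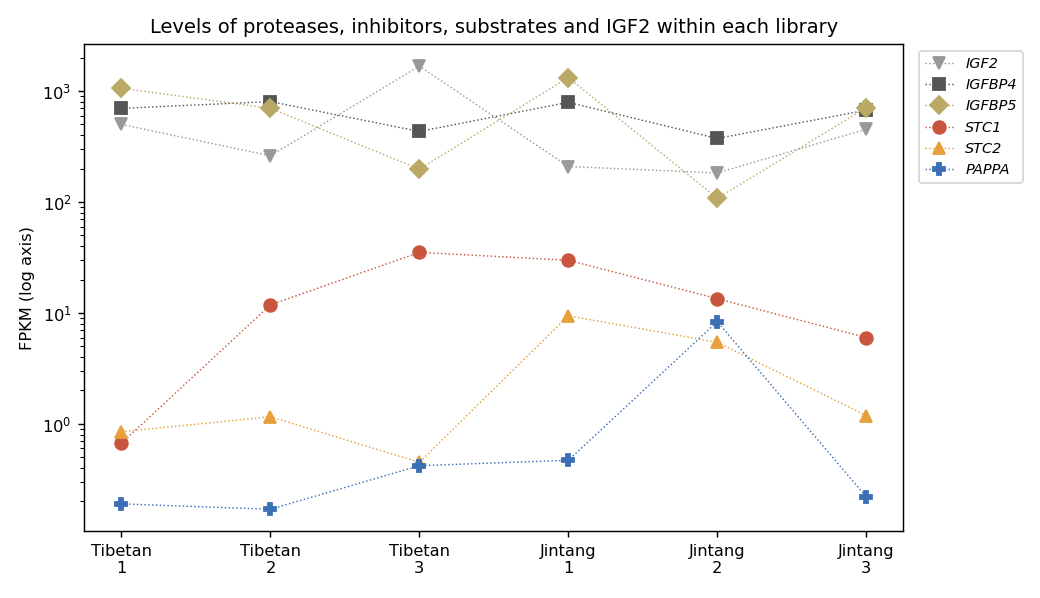
FPKM of PAPPA, STC1, STC2, the substrates IGFBP4 and IGFBP5, and the ligand IGF2 in each ovary, on a log axis; dotted lines only link the points of 1 gene, and PAPPA2 is not drawn because it was listed at 0 in 4 ovaries. The substrates and IGF2 lay between 108 and 1678 FPKM, above both inhibitors in every ovary, and PAPPA came close to the inhibitors in Jintang 2 (8.35 FPKM).

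Of 15 genes listed for the rest of the IGF axis, 12 were matched in the tables and 11 were tested. IGFALS, PRG2 and IRS2 were not analysed here, and IGFBP1 was under 1 FPKM in 4 ovaries, with its highest value in Jintang 1 (7.51 FPKM). None of the 11 passed limma over all genes (adjusted p from 0.743 to 0.965) and none had an unadjusted p under 0.05. Of the 11 log2 fold changes 4 were positive and 7 negative, with a median log2 fold change of -0.12 beside -0.10 for all tested genes.

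Among the ligands, IGF2 was the more abundant and the more variable. Tibetan 1 to 3 had 501, 261 and 1678 FPKM, and Jintang 1 to 3 had 209, 183 and 453 FPKM (log2 fold change -1.22, SE 0.68, limma adjusted p = 0.743), and the breeds overlapped. In Tibetan and then Jintang goats IGF1 had means of 20.8 ± 8.78 and 12.8 ± 4.2 FPKM. In the same order the signalling receptor IGF1R averaged 20.3 ± 4.05 and 22.7 ± 9.56 FPKM, the scavenger receptor IGF2R, which clears IGF2, 41.9 ± 10.6 and 60.2 ± 33.9 FPKM, and the insulin receptor INSR 51.8 ± 8.81 and 36.1 ± 16.1 FPKM. IRS1, an adaptor downstream of both signalling receptors, averaged 12.5 ± 0.409 and 16.2 ± 3.19 FPKM. It was higher in each Jintang than in each Tibetan ovary, as were 3.20% of the 13067 tested genes. Its closest ovaries were Jintang 2 (13.7 FPKM) and Tibetan 2 (12.8 FPKM), and its unadjusted limma p was 0.220. The fold changes of IGF1, IGF2 and IRS1 kept their sign under all 16 alternative settings and those of the other 8 genes did not. The filter, trend and replicate-block settings leave a fold change as it was, so they could not alter a sign. For IRS1, with the breeds fully separated, leaving goats out could not alter it either.

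**Figure D4:**
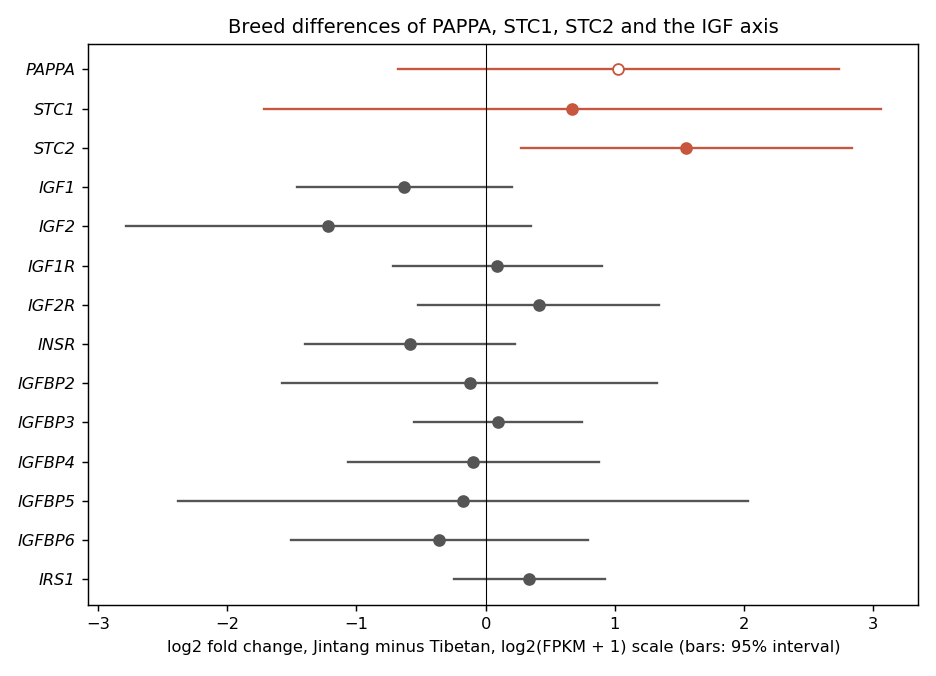
Log2 fold changes (Jintang minus Tibetan) with 95% intervals from limma for PAPPA, STC1 and STC2 (red) and the 11 tested genes of the IGF axis (grey); the open circle marks PAPPA, which was fitted without the expression filter, and PAPPA2 is left out because all Jintang ovaries were listed at 0. The interval of STC2 (0.27 to 2.84) is the only one that excludes 0, and its adjusted p over all genes was 0.743.

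Marker levels are given beside STC1 in the order of its level, which fell from Tibetan 3 and Jintang 1 through Jintang 2, Tibetan 2 and Jintang 3 to Tibetan 1. In that order the mean log2 level of 11 hypoxia-induced genes was 4.53, 5.14, 4.57, 3.96, 3.93 and 3.98. The 3 ovaries with the most STC1 had the 3 highest levels of this list, and the other 3 ovaries lay close together. The list was highest in Jintang 1 and Jintang 2, which also had the most STC2. Tibetan 3, close behind at 4.53, had the least STC2. The summed level of the list spanned 267 to 583 FPKM among Tibetan and 262 to 963 FPKM among Jintang goats, with 11 of 11 genes above 0 in every ovary.

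The genes of that list differed in their order over the ovaries. LDHA, the lactate-producing enzyme of anaerobic glycolysis, was at 178, 188, 255, 35.1, 37.7 and 10.9 FPKM in the same order of ovaries. The vasodilator peptide gene ADM was highest in Jintang 1 (403 FPKM) and at 90.4 to 148 FPKM in the others, and NDRG1 was highest in Jintang 1 and 2 (161 and 112 FPKM). CA9, a carbonic anhydrase, was lowest in Jintang 2 and 1 (1.49 and 1.74 FPKM). PDK1, a kinase that holds back pyruvate oxidation, was lowest in Tibetan 3 and Jintang 2 (4.23 and 5.03 FPKM), as was ANKRD37 (0.73 and 0.89 FPKM). P4HA1, another gene of the list, instead fell in the same order as STC1, at 37.31, 31.57, 23.85, 20.1, 18.13 and 14.5 FPKM. The part of these genes, and of the cells that express them, in the STC1 or STC2 levels was not tested.

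Luteal markers had mean log2 levels of 6.99, 7.70, 9.68, 5.17, 5.08 and 4.40 in the order of falling STC1. The part of luteal or theca cells in the STC1 levels was not tested. Theca markers were highest in Tibetan 3 (5.44) and lowest in Jintang 1 (2.50), the 2 ovaries with the most STC1. CYP17A1, the androgen-making enzyme of theca cells, was at 719 FPKM in Tibetan 3 and at 1.99 FPKM in Jintang 1. Summed over the 4 matched theca markers (of 5), levels spanned 99.7 to 857 FPKM among Tibetan and 58.4 to 194 FPKM among Jintang goats, and HPGD was at 0 in Jintang 1.

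STC2 was highest in Jintang 1 and Jintang 2, and markers of several cell types were high or low in the same ovaries. The stromal collagen genes COL1A1 (2931.4 and 1737.4 FPKM, against 441 to 825 FPKM in the other 4) and COL3A1 (2921 and 1786.8 FPKM, against 475 to 958 FPKM) were highest there. DCN, a further stroma marker, was instead lowest in Jintang 2 (531 FPKM) and at 1210 FPKM in Jintang 1. Over all 6 stroma markers the sums were 1559 to 3314 FPKM among Tibetan and 3251 to 8004 FPKM among Jintang goats. Their mean log2 level was highest in Jintang 1 (9.14). In Jintang 2 it was 8.21, below Jintang 3 (8.36) and Tibetan 2 (8.28) and above Tibetan 1 (8.14) and Tibetan 3 (6.77). The luteal list had mean log2 levels of 7.70 and 9.68 in Jintang 1 and 2 and of 4.40 to 6.99 in the others. Its genes differed. PTGFR had 274 and 259 FPKM in Jintang 1 and 2 and 9.23 to 32.3 FPKM in the others, and TIMP1 was also highest there. CYP11A1 and 3BHSD were instead higher in Tibetan 3 (912 and 482 FPKM), where STC2 was lowest, than in Jintang 1 (515 and 105 FPKM). Smooth muscle markers had their lowest mean log2 levels in Jintang 1 and 2 (8.17 and 7.72, against 8.83 to 9.82). Their sums were 3793 to 7502 FPKM among Tibetan and 1895 to 7445 FPKM among Jintang goats.

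In Jintang 1, where STC2 was highest, all 5 matched macrophage markers (of 6) were at their highest as well, and their summed level was 450 FPKM there against 34.3 to 125 FPKM in the other 5 ovaries. CD68, a lysosomal protein of macrophages, was at 233 FPKM in Jintang 1 but at 9.83 FPKM, its lowest, in Jintang 2, the ovary with the second highest STC2. MRC1 and MSR1, the mannose and a scavenger receptor, were second highest in Jintang 2 (14.0 and 12.4 FPKM, after 30.3 and 49.2 FPKM in Jintang 1). AIF1 and CSF1R were instead lower in Jintang 2 (13.5 and 15.8 FPKM) than in Tibetan 2 (25.45 and 15.98 FPKM) and Jintang 3 (23.4 and 16.4 FPKM). The mean log2 level of the list in Jintang 2 was 3.80, below Tibetan 2 (4.22) and Jintang 3 (4.26). MSR1 was higher in each Jintang than in each Tibetan ovary, as were 3.20% of the 13067 tested genes. Endothelial markers had their highest mean log2 levels in Jintang 1 and 2 (5.53 and 5.41, against 3.69 to 4.67), with 6 of 7 matched. Their sums were 132 to 229 FPKM among Tibetan and 149 to 347 FPKM among Jintang goats. PECAM1 was highest in Jintang 1 and 2 (82.0 and 93.7 FPKM, against 12.65 to 40.3 FPKM). VWF was highest in Jintang 1 (130 FPKM) but at 58.1 FPKM in Jintang 2, against 54.9 to 92.3 FPKM in the others. KDR was lowest in Jintang 1 (25.1 FPKM) and highest in Tibetan 2 (54.3 FPKM). The 10 genes of the endoplasmic reticulum and amino acid stress responses, pathways known to induce STC2, had mean log2 levels of 4.81 and 4.53 in Jintang 1 and 2 and of 4.19 to 4.79 in the other 4 ovaries. Their sums were 587 to 950 FPKM among Tibetan and 591 to 1019.9 FPKM among Jintang goats. No stroma, smooth muscle, macrophage, endothelial or stress-response marker was at 0 in any ovary. Within that list the chaperone HSPA5 had 267 and 501 FPKM in Jintang 1 and 2 but also 493 FPKM in Tibetan 3, where STC2 was lowest, whereas HERPUD1 was at 132 and 134 FPKM against 38.6 to 75.4 FPKM in the others. The part of none of these lists in the STC2 levels was tested.

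**Figure D5:**
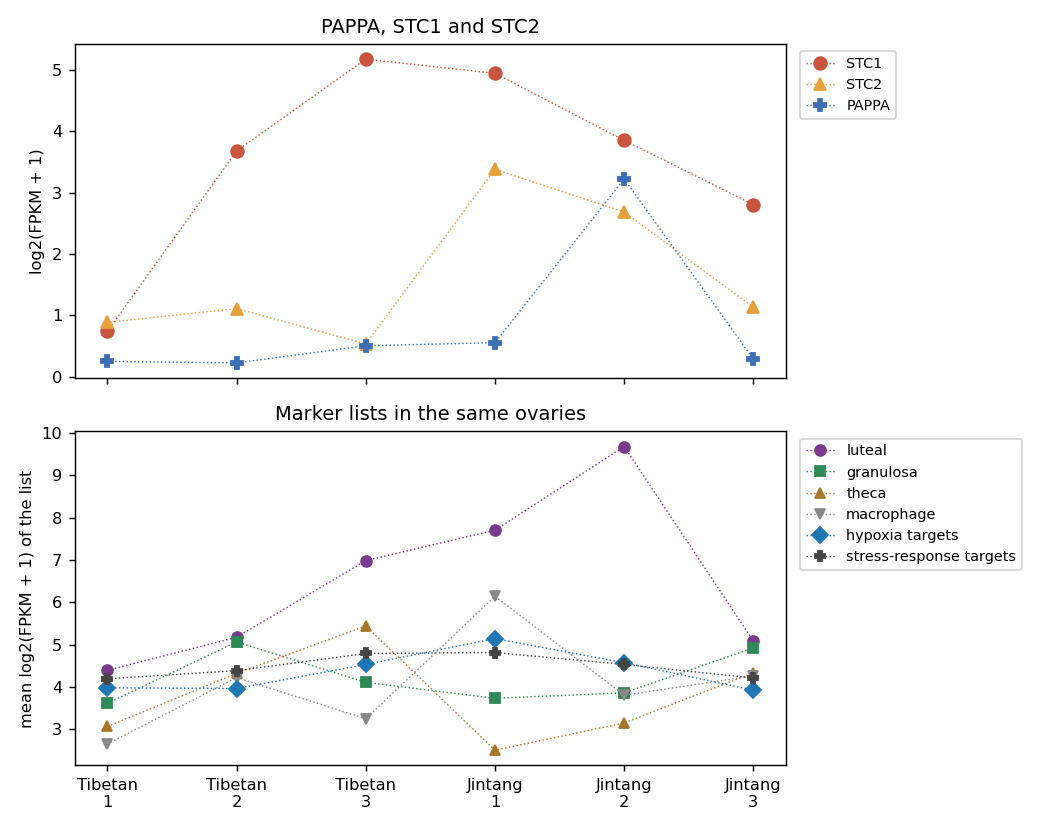
Upper panel, log2(FPKM + 1) of PAPPA, STC1 and STC2 in each ovary; lower panel, mean log2(FPKM + 1) of 6 gene lists in the same ovaries; dotted lines only link the points of 1 gene or list. The luteal list was at 9.68 in Jintang 2, where PAPPA peaked, and the hypoxia targets were highest in Jintang 1 (5.14).

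Genes whose pattern over the 6 ovaries was most like that of each member were ranked by Pearson correlation of log2(FPKM + 1). With 6 ovaries such values describe shared shape only. For PAPPA 96 genes reached r of 0.95 or more, led by FAM167B (r = 0.996), SH2D4A (0.993), NOA1 (0.993), ENTPD4 (0.991) and CSPG4 (0.990). All of these peaked in Jintang 2, FAM167B at 25.3 FPKM against 2.70 to 3.27 FPKM elsewhere and SH2D4A at 22.6 FPKM against 0.45 to 1.58 FPKM.

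For STC1 29 genes reached 0.95, and the closest were OSTF1 (r = 0.996), TCEANC2 (0.994), NDFIP2 (0.992), DENND4C (0.989) and DDX58 (0.987). All 5 were highest in Tibetan 3 and Jintang 1 and lowest in Tibetan 1, over a narrower range than STC1, and DENND4C and DDX58 were higher in Tibetan 2 than in Jintang 2, unlike STC1. The closest, OSTF1, was at 15.7, 26.1 and 36.1 FPKM from Tibetan 1 to 3, and at 32.9, 28.9 and 22.7 FPKM from Jintang 1 to 3. DDX58, which encodes the RNA sensor RIG-I, ranged from 2.80 FPKM in Tibetan 1 to 6.13 FPKM in Tibetan 3.

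For STC2 63 genes reached 0.95. The closest were IER3 (r = 0.995), CEMIP (0.992), UBAC1 (0.990), APOA1 (0.989) and PLAUR (0.987). APOA1, the main protein of high-density lipoprotein, had 6823.7 and 3580.7 FPKM in Jintang 1 and 2, beside 136 to 308 FPKM in the other 4 ovaries. PLAUR, the urokinase receptor, was at 70.2 and 21.3 FPKM against 2.1 to 5.19 FPKM, and CEMIP, which degrades hyaluronan, at 31.9 and 13.0 FPKM against 0.65 to 1.54 FPKM. IER3, an immediate-early survival gene, was at 147 and 90.2 FPKM against 18.4 to 35.4 FPKM. For PAPPA2, with 4 ovaries at 0, the closest genes were CAPS (r = 0.980), CIC (0.977), TMEM161A (0.977), TULP3 (0.976) and NR2F1 (0.975), and these rest on traces of PAPPA2 in Tibetan 1 and 3.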

How the data were processed

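Ovarian RNA of 6 goats was measured (3 Tibetan, 3 Jintang). Per the labels' protocols it was extracted with TRIzol and made into libraries with an NEBNext kit. The authors deposited FPKM values for 17504 genes per goat, per the file headers. RSEM 1.2.0, Bowtie2 2.1.0 and TopHat2 2.0.10 are named, with no role, in the submitters' processing notes. For strand setting and genome build, "not given in the sources used here" applies, and neither coordinates nor sequences are printed. A series-wide table repeated the same values and was not used.

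Symbols came from a RefSeq table of assembly ARS1.2 (16457 GeneIDs matched directly, 9 through a transcript, 1038 not matched). The limma test (version 3.58.1, R 4.3.3; lmFit and eBayes with trend, 2-sided) used log2(FPKM + 1) of the 13067 genes that reached 1 FPKM in 3 or more libraries, with breed as the single term and a Benjamini-Hochberg adjusted p under 0.05 as the threshold. PAPPA and PAPPA2 missed this filter and were read from a fit of the 17411 genes above 0, as planned for PAPPA2 and as decided for PAPPA after its values were seen; no fold change is given for PAPPA2, since all Jintang libraries are listed at 0. The fits were tested on simulated data first. With 1 goat per library, p-values measure the spread between animals. Low FPKM values gave relative depths of 0.930 to 1.03 (Tibetan 1 set to 1).

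Members, lists and tests were chosen with earlier results of these data known. The genes named are the members, the IGF axis list, for each member the 5 genes with a symbol and the highest Pearson r, and up to 3 genes per marker list with the highest mean FPKM. CYP19A1, FSHR, HPGD, PTGFR, PRLR, COL1A1, COL3A1, MRC1, MSR1, CA9, PDK1, ANKRD37 and P4HA1 were named after their values were seen. Alternatives were smaller pseudocounts (0.1 and 0.01), the fit unfiltered or with 5 FPKM required in 3 libraries, TPM, median-ratio and quantile scaling, no trend, a replicate block, each library left out and, added after seeing the data, Jintang 1 and 2 left out together. Plots used matplotlib 3.10.9 (Python 3.11.15).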

Additional observations from a re-analysis of the deposited data

How the results depend on the processing

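The limma fold change of STC2 stayed positive and short of the adjusted threshold in all 15 alternatives run, from 0.29 (without Jintang 1 and 2 together) to 2.35 (pseudocount 0.01). With single libraries left out it ran from 1.06 to 2.19. Every Jintang value of STC2 exceeded every Tibetan value. Leaving goats out or changing the pseudocount, filter, trend or block therefore could not reverse its sign, and only its size is informative there. STC1 reversed to -0.56 without Tibetan 1 and to -0.39 without Jintang 1 and 2 together, and its range with single libraries left out was -0.56 to 1.66. PAPPA reversed to -0.041 without Jintang 1 and 2 together and ran from 0.09 to 1.56 with single libraries left out; smaller pseudocounts of 0.1 and 0.01 raised it from 1.03 to 1.75 and 1.97. No fold change is given for PAPPA2, whose Jintang values are all listed at 0 and whose fitted values depend on the pseudocount. No member passed the adjusted threshold in any setting. The median log2 fold change over the tested genes was -0.10 as deposited and 0.02 after median-ratio scaling; relative to that median STC2 was at 1.65 as deposited and at 1.63 after scaling. Over all genes limma called 0 genes in every setting except without Jintang 3, where 13 were higher and 0 lower in Jintang ovaries (range with single libraries left out 0 to 13); STC2 was not one of them (adjusted p = 0.127). With a replicate block on the number in the titles, 0 genes were called and STC2 had an adjusted p of 0.952. Deviations from the breed means correlated at -0.02, -0.21 and -0.47 between same-numbered goats. With 3 goats per breed these values cannot show whether the numbers mark a pairing or a shared batch, and the labels name neither. The filters gave no further value for PAPPA and PAPPA2, and the filter of 5 FPKM gave none for STC2. Absolute depth is unknown, which limits what can be read from PAPPA2 and from PAPPA outside Jintang 2.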
